A study of Homo sapiens with 6 samples.

Results

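The MYC family and MAX network comprises 10 genes here: MYC, MYCN, MYCL, MAX, MXD1, MXD3, MXD4, MXI1, MNT and MGA. They were chosen by name from the gene count table, which has 53719 rows. MYCL stands in the table under its older symbol MYCL1, and the other members under their own names. All 10 passed the filter on low counts and were among the 19721 genes tested. RNA was sequenced from the established human embryonic stem cell line H9, grown in RSeT medium, which is made for naive-type culture. The 3 control libraries came from cells transfected with a control gapmer, and the 3 knockdown libraries from cells transfected with a gapmer that targets ALR, the RNA copied from the alpha satellite repeats of human centromeres. Both groups were transfected, shared the same line and medium, and were collected after 48 h. A gapmer is a short antisense oligonucleotide; it leads RNase H to cleave its RNA target. The labels call the knockdown libraries Sense3a, Sense3b and Sense3c, and nothing in them says that the letters mark separate cultures, so p-values measure the spread between these libraries, which may be technical. Where 3 values are listed for a group, they are those of its libraries a, b and c.

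MYC proteins are basic helix-loop-helix leucine zipper factors that bind DNA only after pairing with MAX. MYC-MAX pairs activate genes with E-box sequences, many of them for growth, nucleotide supply and ribosome production. MXD proteins, MXI1 (a member of the MXD branch) and MNT compete for MAX and recruit SIN3 corepressors to the same sites, while MGA joins MAX in a Polycomb complex, PRC1.6, that silences germ cell genes. In pluripotent cells MYC and MYCN are known for sustaining proliferation and biosynthesis, and MGA and MAX for keeping meiotic genes silent.

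Total counts were 25087629 to 36576752 per library. Knockdown library a had counts in 29678 rows and the other 5 in 25898 to 26788, so values without it are given where they matter. The pluripotency markers were abundant, with a summed level of 4519 to 5039 CPM (a gene's counts relative to the TMM-scaled library size) after knockdown and 4450 to 4561 in the controls; of the 8 markers SOX2 was listed at 0 in every library. The naive state was less clear in the markers. KLF17, a defining naive factor, had 1 to 10 counts per library, and KHDC1L was listed at 0. The highest naive markers were DPPA3 (18.1 to 21.9 CPM over all libraries) and KLF4 (16.5 to 19.1 CPM). The 9 naive markers summed to 46.3 to 51.8 CPM after knockdown and 47.1 to 49.7 in the controls. The 8 primed markers summed to 354 to 396 and 341 to 371 CPM, with THY1 listed at 0. The fibroblast list summed to 89.3 to 98.3 CPM after knockdown and 92.4 to 106 in the controls, most of it from COL1A2 (60.7 to 81.0 CPM) and COL1A1 (18.8 to 24.8 CPM), with 1 to 11 counts of DCN per library. The trophectoderm and amnion list stayed at or below 3.38 CPM in every library. The germ layer list summed to 17.2 to 17.9 CPM after knockdown and 14.4 to 16.1 in the controls, most of it from MIXL1 (9.94 to 14.1 CPM). The part of these markers in the results was not tested. Some rows of genes that most cells use were also at 0 (EIF4A1, HSPE1, PHB), so a 0 in this table does not show that a gene was silent.

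The promoters of the members were read from RefSeq on GRCh38.p14, from 250 bases before to 50 after each start, for 9 members with 14 windows in all; MYC was not matched. The canonical E-box that MYC-MAX pairs bind, CACGTG, reads the same on both strands and was found in 2 of the 14 windows, those of MXD4 and MNT, where 7.26% of all 35116 RefSeq windows hold it. The variant CACGCG, searched on both strands, was found in 3, those of MXD3, MXI1 (the third of its starts) and MGA (the second), against 11.4% of all windows. No window of a member held both. A match describes the letters only. The stretches below lie before the start and outside annotated exons, each 5′ to 3′ on the gene's strand. MYCN and MXI1 (the first of its starts) are shown because they had the smallest p-values of the members, and MXD4 and MNT because they hold the E-box, which is in capitals.
MYCN, chr2:15940352-15940549, plus strand: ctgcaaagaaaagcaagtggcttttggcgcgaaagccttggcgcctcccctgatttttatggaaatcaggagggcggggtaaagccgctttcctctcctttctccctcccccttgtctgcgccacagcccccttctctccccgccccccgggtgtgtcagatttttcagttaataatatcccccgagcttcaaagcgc
MXI1, chr10:110207355-110207604, plus strand: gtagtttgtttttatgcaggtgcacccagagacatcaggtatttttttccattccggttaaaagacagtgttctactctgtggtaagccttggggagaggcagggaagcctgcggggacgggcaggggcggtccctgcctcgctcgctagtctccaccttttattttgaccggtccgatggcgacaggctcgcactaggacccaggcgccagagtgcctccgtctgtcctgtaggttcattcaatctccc
MXD4, chr4:2262295-2262359, minus strand: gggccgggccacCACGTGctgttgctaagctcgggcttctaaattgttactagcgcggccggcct
MNT, chr17:2401119-2401310, minus strand: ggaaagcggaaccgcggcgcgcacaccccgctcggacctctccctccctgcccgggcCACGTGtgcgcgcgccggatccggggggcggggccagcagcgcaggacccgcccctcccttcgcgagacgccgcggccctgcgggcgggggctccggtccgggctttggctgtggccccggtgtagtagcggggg

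MYC was the most abundant member per length of transcript, and MXD3 the least. Levels were compared as RPKM, here the CPM divided by the kilobases of exon (the union of a gene's GENCODE 29 exons). In control libraries MYC stood at 20.9 ± 1.92 (SD, n = 3), MGA at 12.4 ± 0.921, MYCN at 10.6 ± 0.424 and MAX, the partner they share, at 7.90 ± 0.110. MXD1 followed at 5.29 ± 0.125 and MYCL at 3.87 ± 0.136. Of the remaining antagonists MXI1 had 3.72 ± 0.155, MXD4 3.30 ± 0.377, MNT 2.16 ± 0.211 and MXD3 0.911 ± 0.0917 RPKM. Neighbours in this order were apart in their control libraries except MYCL and MXI1, and MXI1 and MXD4, whose libraries overlapped. The knockdown libraries gave the same order, in which MGA and MYCN, and MXI1 and MXD4, overlapped. Part of the order rests on the choice of length: with the longest transcript in its place, MAX stood above MYCN in the controls (11.1 ± 0.154 against 10.6 ± 0.424), MYCL above MXD1 in knockdown libraries (6.66 ± 0.183 against 5.41 ± 0.224), and MXD4 above MXI1 in both groups (5.50 ± 0.629 against 4.94 ± 0.205 in control).

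**Figure D1:**
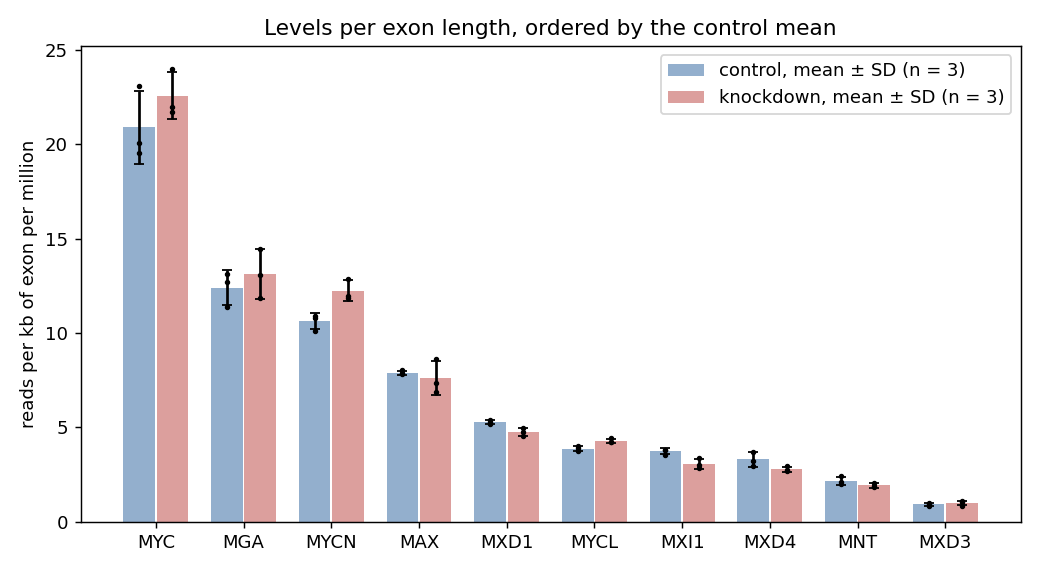
Mean RPKM of the 10 members in control (blue) and knockdown (red) libraries; bars start at 0, error bars are SD over 3 libraries and dots are single libraries. MYC is highest and MXD3 lowest in both groups.

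None of the 10 members passed the test between ALR knockdown and control. With edgeR's quasi-likelihood test and Benjamini-Hochberg adjustment over all 19721 genes, 0 members had an adjusted p under 0.05, where 155 of all genes (0.786%) did. DESeq2's Wald test and limma-voom also called 0. At an unadjusted edgeR p under 0.05 there were 4, MYCN higher and MXD1, MXD4 and MXI1 lower. Of all genes 14.3% had one, 6.68% higher and 7.57% lower; DESeq2 and limma-voom each gave 3. The knockdown and control libraries did not overlap in 5 of the 10 members, where this held for 18.9% of all genes tested. MYCN and MYCL were above control in all 3 knockdown libraries (9.55% of all genes), and MXD1, MXD4 and MXI1 below (9.37%). All 3 MYC genes had a fold change above 0 and 4 of the 6 antagonists one below 0. Of all 19721 genes, 10736 were above 0 and 8985 below. The fold changes ran from -0.28 to 0.21 on the log2 scale, and the median was 0.01, against 0.02 over all genes. Lower RNA per cell and fewer cells of a type cannot be told apart in such bulk libraries.

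**Figure D2:**
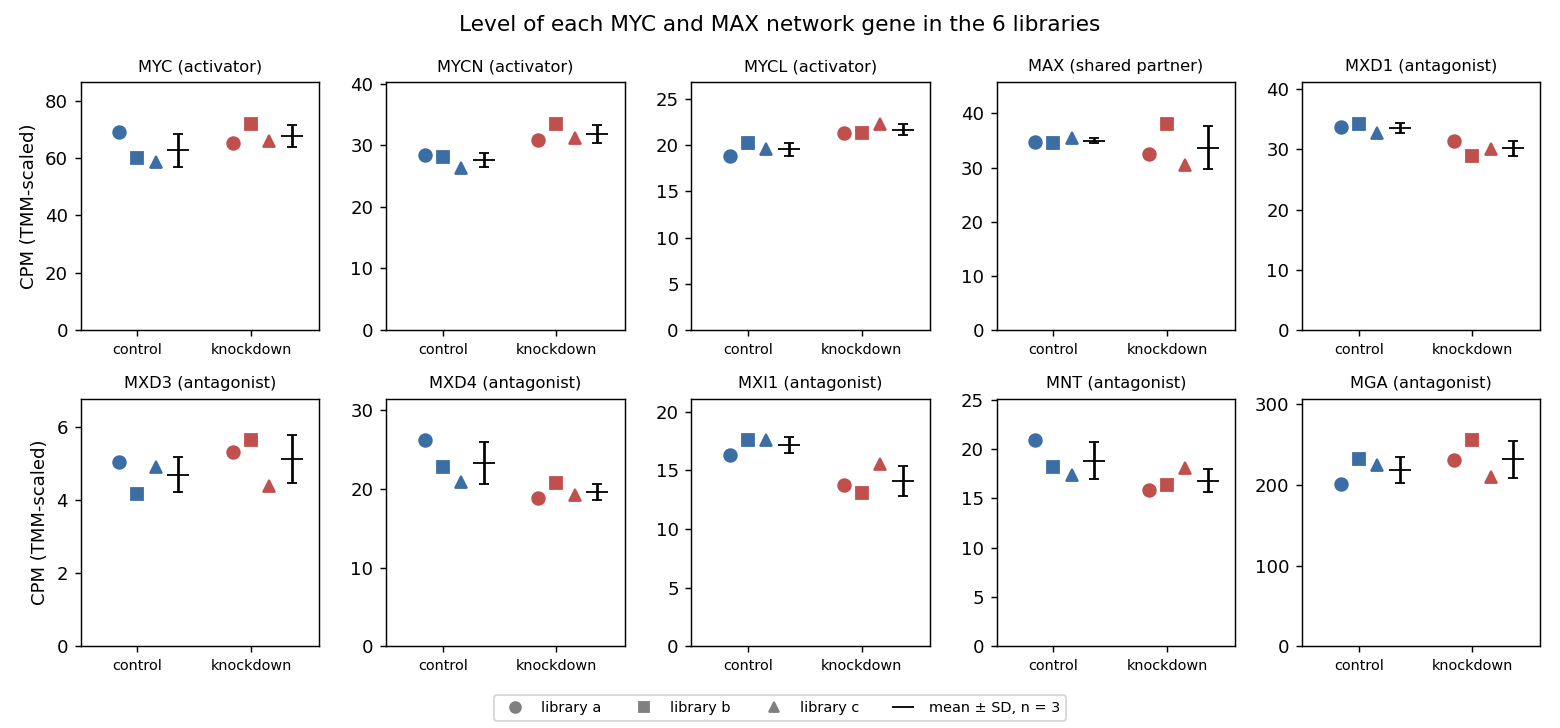
CPM (TMM-scaled library sizes) of each member, with 1 point per library, by group, and the mean with its SD over 3 libraries; each vertical axis starts at 0 and has its own scale. The groups are apart for MYCN, MYCL, MXD1, MXD4 and MXI1 and overlap for the other members.

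MYC (ENSG00000136997.17, chromosome 8) is the founding member and the one most widely tied to growth. It had 65.1, 72.0 and 66.0 CPM after knockdown and 69.3, 60.2 and 58.6 in the controls. Control library a lay above 2 of the knockdown libraries, so the groups overlapped. The knockdown exceeded the control by 0.11 ± 0.08 on the log2 scale (SE; 95% interval -0.06 to 0.28; edgeR adjusted p = 0.550).

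MYCN (ENSG00000134323.11, chr2:15940564-15947007) is the MYC gene best known from neural progenitors and neuroblastoma, and it is also expressed in pluripotent cells. Its level was 30.9, 33.5 and 31.1 CPM after knockdown and 28.4, 28.1 and 26.3 in the controls. Each knockdown library was above each control library. Its log2 fold change of 0.21 ± 0.07 (95% interval 0.05 to 0.37; edgeR adjusted p = 0.231) did not pass over all genes. It shares 98 exonic bases with its antisense gene MYCNOS, which had only 13 to 35 counts per library against 787 to 1118 for MYCN.

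MYCL (ENSG00000116990.10, chr1:39895426-39902256), a MYC gene with weaker transforming activity that is used in reprogramming, had 21.3, 21.4 and 22.4 CPM after knockdown and 18.9, 20.2 and 19.6 in the controls. These groups were apart as well, by about 1 CPM between the nearest libraries. On the log2 scale the change was 0.15 ± 0.08 (95% interval -0.02 to 0.31; edgeR adjusted p = 0.420). The 3 MYC genes were thus 0.11 to 0.21 above control on the log2 scale, and none passed. With each library's trend on gene span removed, the values were smaller: 0.05 for MYC, 0.14 for MYCN and 0.08 for MYCL. MYCL shares 226 exonic bases with an antisense gene, AL033527.2.

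MAX (ENSG00000125952.18, chr14:65006174-65102695) is the partner that the other members share. The control libraries were close together at 34.8, 34.6 and 35.5 CPM, and the knockdown libraries spread around them at 32.5, 38.1 and 30.4. The fitted log2 fold change was -0.05 ± 0.09 (95% interval -0.24 to 0.13; edgeR adjusted p = 0.826). It was -0.16 without knockdown library b and -0.006 without knockdown library c. MAX lies opposite FNTB and CHURC1-FNTB without sharing exonic bases with them, and shares 184 with the antisense gene AL139022.1.

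Of the antagonists, MXI1 (ENSG00000119950.20, chr10:110207605-110287365), an MXD-type repressor of MYC target genes, had the smallest p-value of the 10 members. It had 13.8, 13.0 and 15.5 CPM after knockdown and 16.3, 17.6 and 17.6 in the controls. Knockdown library c was the nearest to control. Its log2 fold change was -0.28 ± 0.09 (95% interval -0.49 to -0.08; edgeR adjusted p = 0.203). Without knockdown library c the change was -0.38 and passed over all genes (edgeR adjusted p = 0.0462), the only one of 16 alternative analyses (other scalings, filters, tests and left-out libraries) that called a member. Without it the fit called 1309 genes, against 155 with all libraries.

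MXD4 (ENSG00000123933.16, chr4:2247432-2262294), a repressor of the same branch that is typical of resting and differentiating cells, had 18.8, 20.8 and 19.2 CPM after knockdown and 26.1, 22.8 and 20.9 in the controls. The groups were apart by a narrow margin, 20.8 in knockdown library b against 20.9 in control library c. On the log2 scale the change was -0.25 ± 0.10 (95% interval -0.45 to -0.04; edgeR adjusted p = 0.274). Without control library a, which had the highest level, it was -0.15.

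MXD1 (ENSG00000059728.10, chr2:69897688-69942945), the first known antagonist of MYC, had 31.5, 29.0 and 30.2 CPM after knockdown and 33.7, 34.3 and 32.7 in the controls. The 2 groups were apart with little spread inside each. Its log2 fold change was -0.15 ± 0.07 (95% interval -0.30 to -0.002; edgeR adjusted p = 0.345). MXD1 shares 237 exonic bases with SNRNP27 on the same strand, so some reads could belong to that gene.

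MXD3 (ENSG00000213347.10, chr5:177301461-177312757), the MXD gene tied to dividing cells, was the rarest member with 111 to 188 counts per library. Its level was 5.32, 5.63 and 4.39 CPM after knockdown and 5.03, 4.15 and 4.90 in the controls, and the groups overlapped. Its log2 fold change of 0.13 ± 0.16 had the widest interval of the members (-0.21 to 0.47; edgeR adjusted p = 0.760). It shares 926 exonic bases with RAB24 and 1158 with PRELID1, whose row was at 0 in every library.

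MNT (ENSG00000070444.14, chr17:2384060-2401118), the antagonist found in both dividing and resting cells, had 15.9, 16.4 and 18.1 CPM after knockdown and 20.9, 18.2 and 17.4 in the controls. Knockdown library c overlapped control library c. MNT's log2 fold change was -0.17 ± 0.10 (95% interval -0.38 to 0.05; edgeR adjusted p = 0.470), and it was -0.08 without control library a. It shares 1065 exonic bases with the antisense gene AC006435.1.

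MGA (ENSG00000174197.16, chr15:41621224-41773081), a large protein with both a T-box and a helix-loop-helix domain, had the most reads of the members, 5287 to 8523 per library. It had 230.5, 255 and 209 CPM after knockdown and 201, 232 and 224 in the controls, so the groups were mixed. The log2 fold change was 0.08 ± 0.08 (95% interval -0.10 to 0.27; edgeR adjusted p = 0.704). Without knockdown library b it was 0.00014, so the size of the MGA value rests on that library. MGA shares 510 exonic bases with the noncoding gene AC073657.1 on the other strand.

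**Figure D3:**
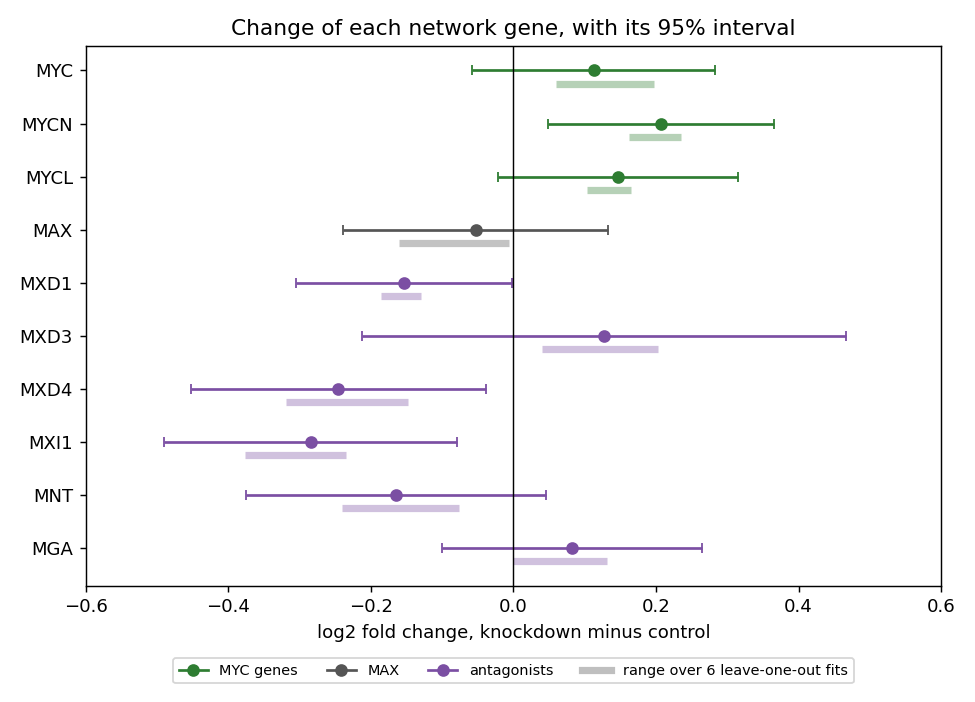
Log2 fold change (knockdown minus control) of each member from edgeR, with its 95% interval; the pale bar under each point is the range over the 6 fits that each left out 1 library. The intervals of MYCN, MXD1, MXD4 and MXI1 do not include 0, and 0 members passed after adjustment over all genes.

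The make-up of the network was then described from the levels per exon length, with no test, since the members were chosen together. MYC made up 57.7 ± 0.598% of the summed level of the 3 MYC genes after knockdown and 59.0 ± 1.93% in the controls, MYCN 31.3 ± 0.119% and 30.0 ± 1.03%, and MYCL 11.0 ± 0.636% and 11.0 ± 0.947% (SD, n = 3). MGA alone made up 49.2 ± 2.90% of the 6 antagonists after knockdown and 44.6 ± 2.58% in the controls. The mix of the 3 MYC genes thus differed by under 2 percentage points between groups.

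The summed level of MYC, MYCN and MYCL was 37.8, 41.1 and 38.4 RPKM after knockdown and 37.7, 34.8 and 33.5 in the controls. Knockdown library a and control library a were nearly equal in this sum. All 6 antagonists together summed to 26.5, 27.8 and 25.6 after knockdown and 27.3, 28.4 and 27.6 in the controls, and the groups overlapped. The 5 other than MGA summed to 13.5, 13.3 and 13.8 after knockdown and 15.9, 15.3 and 14.9 in the controls. For these 5 the groups were apart. The log2 ratio of the MYC sum to the sum of all 6 antagonists was 0.51, 0.57 and 0.58 after knockdown. It was 0.47, 0.29 and 0.28 in the controls, a difference of 0.21. Without MGA, whose own log2 fold change was 0.08, the ratio was 1.49, 1.63 and 1.48 against 1.24, 1.19 and 1.17. Leaving out MGA thus raised the difference to 0.33. In both forms each knockdown library was above each control library. The ratios are made from the member levels already given, so this is no separate support. No share over all genes was computed for such a ratio.

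**Figure D4:**
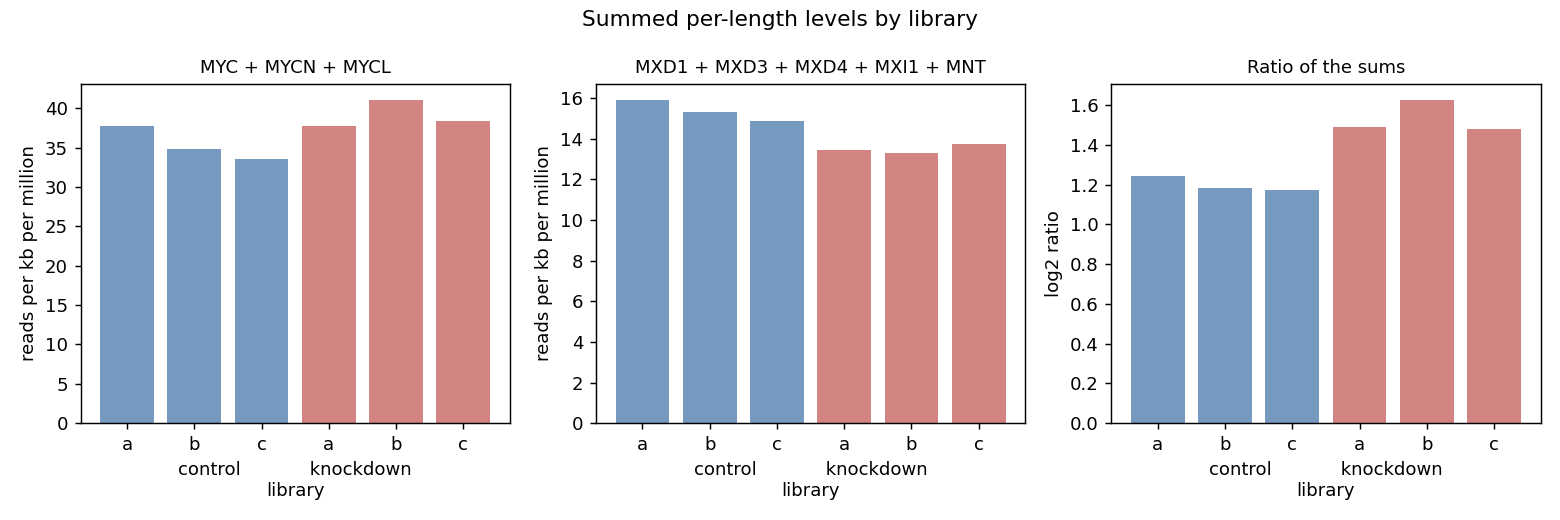
Summed RPKM of the 3 MYC genes (left) and of the 5 antagonists other than MGA (middle), and the log2 ratio of these sums (right), with 1 bar per library (blue control, red knockdown) and axes from 0. The ratio is 1.48 to 1.63 in knockdown and 1.17 to 1.24 in control libraries. With MGA counted, which is not drawn, the antagonist sums of the groups overlap. The groups then differ in the log2 ratio by 0.21, against 0.33 in the form drawn.

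The genes that work with the network were counted from lists by role, and over these 9 lists 2 genes passed over all genes tested, DAZL and CDKN1A, both lower (0.786% of all genes passed). In the lists below with 0 passing genes by edgeR, DESeq2 and limma-voom also called 0 unless stated. Beside each list's count above 0 stand the 10736 of all 19721 genes that were above 0. At an unadjusted edgeR p under 0.05 there were 0 genes of the MLX branch, 3 cofactors, 4 stability regulators, 4 corepressors and 1 partner in PRC1.6, where 14.3% of all genes had one. The parallel branch of the network pairs MLX, a relative of MAX, with the glucose-responsive factors MLXIP and MLXIPL. Of its 5 genes 0 passed in either direction and 4 were above 0 (median 0.08). MLX had 21.4 ± 0.700 CPM after knockdown and 23.0 ± 0.733 in the controls (log2 fold change -0.11), MLXIP 101 ± 5.31 and 98.2 ± 2.23 (0.04), and MLXIPL 3.31 ± 0.428 and 2.49 ± 0.527 (0.41 ± 0.21; edgeR adjusted p = 0.412).

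MYC cofactors gave 0 passing genes in either direction of 15, with 11 above 0 and a median of 0.04. TRRAP, the scaffold that brings histone acetyltransferases to MYC, had 232 ± 25.8 CPM after knockdown and 277 ± 17.9 in the controls (log2 fold change -0.25 ± 0.09; edgeR adjusted p = 0.209), and its groups overlapped, with 261 in knockdown library b and 257 in control library a. WDR5, which helps MYC bind chromatin, had 98.4 ± 1.21 and 103 ± 2.42 CPM (-0.07). ZBTB17 (MIZ1), through which MYC represses genes, had 18.4 ± 0.315 and 19.1 ± 0.611 CPM (-0.06).

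Among 14 regulators of MYC protein stability 0 passed in either direction with edgeR, and 9 were above 0 (median 0.04). DESeq2 called 2 of the 14, where it called 2.39% of all genes, and limma-voom 1, where it called 0.882%. CIP2A, an inhibitor of the phosphatase that destabilizes MYC, came nearest with 76.3, 73.5 and 78.1 CPM after knockdown and 92.0, 90.6 and 101 in the controls. All 3 knockdown libraries were below control, and the log2 fold change was -0.32 ± 0.07 (edgeR adjusted p = 0.0557). CIP2A passed in 8 of 16 alternatives, DESeq2 and limma-voom among them, with adjusted p-values from 0.00232 to 0.340. FBXW7, the ubiquitin ligase that marks MYC for destruction, had 93.6, 89.0 and 126 CPM after knockdown and 126, 115 and 123 in the controls (-0.24 ± 0.11; edgeR adjusted p = 0.343). Its value was decided by knockdown library c, without which it was -0.43 (edgeR adjusted p = 0.00285). That fit called 6.62% of all genes. AURKA, a kinase that stabilizes MYCN, had 81.3 ± 1.46 and 76.1 ± 2.04 CPM (0.09), and HUWE1, another ligase of MYC, 881 ± 101 and 794 ± 59.9 CPM (0.15).

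The SIN3 and related corepressors that MXD and MNT proteins recruit had 0 of 14 genes past the threshold in either direction, 8 above 0, and a median of 0.02. SIN3A had 183, 193 and 173 CPM after knockdown against 167, 171 and 166 in the controls (log2 fold change 0.12), SIN3B 117 ± 5.72 and 118 ± 2.64 (-0.01), and the deacetylase HDAC1 122 ± 3.65 and 111 ± 3.03 (0.14 ± 0.06; edgeR adjusted p = 0.325). Without knockdown library c 1 gene of the list passed, where 6.62% of all genes did.

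The partners of MGA in PRC1.6 were close to control, with 0 of 10 past the threshold in either direction, 6 above 0 and a median of 0.02. L3MBTL2, the reader subunit, had 17.6 ± 0.555 and 17.4 ± 0.979 CPM after knockdown and in the controls (log2 fold change 0.02), PCGF6 33.0 ± 1.36 and 31.9 ± 2.88 (0.05), and the repressor E2F6 20.2 ± 1.01 and 20.5 ± 0.799 (-0.02). RING1, a ubiquitin ligase subunit, had 13.6 ± 0.603 and 11.5 ± 1.22 CPM (0.24 ± 0.10; edgeR adjusted p = 0.324).

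Of 18 germ cell genes of the kind that MGA and PRC1.6 silence, 15 had enough counts to be tested. DAZL, an RNA-binding protein of germ cells, was lower after knockdown and was the only one of these to pass (0.649% of all genes passed as lower). Its level was 10.5, 9.17 and 11.0 CPM after knockdown and 14.9, 17.8 and 16.8 in the controls. All 3 knockdown libraries were below control, and the log2 fold change was -0.69 ± 0.11 (95% interval -0.93 to -0.46; edgeR adjusted p = 0.0120). The adjusted p was under the threshold in 12 of 16 alternatives. Leaving out knockdown library b gave 0.0547, and leaving out control library a, b or c gave 0.0636, 0.0973 and 0.115. The list as a whole had 10 of 15 genes above 0 and a median of 0.07, which was -0.16 without knockdown library a, the library with counts in the most rows. DDX4, a helicase of germ cells, had 1.69, 0.599 and 0.791 CPM after knockdown and 0.774, 0.451 and 0.826 in the controls (0.58 ± 0.45; edgeR adjusted p = 0.600). Knockdown library a was the highest, and over the fits without 1 library the log2 fold change fell as low as 0.005. SYCP3, of the meiotic chromosome axis, was listed at 0 in all libraries.

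Of 34 classic target genes that MYC activates 28 were tested. Of these 25 had a fold change above 0 where 10736 of all 19721 genes did, and the median was 0.10 against 0.02. In either direction 0 passed over all genes with edgeR, and 5 of the 28 had an unadjusted p under 0.05, all higher, where 14.3% of all genes had one and 6.68% were higher. ODC1, the first enzyme of polyamine synthesis, had 210 ± 26.6 CPM after knockdown and 206 ± 4.01 in the controls (log2 fold change 0.03). NCL, the nucleolar protein nucleolin, had 1116 ± 104 and 1017 ± 22.4 CPM (0.13 ± 0.08; edgeR adjusted p = 0.460), and CAD, which starts pyrimidine synthesis, 246 ± 20.6 and 215 ± 4.69 CPM (0.19 ± 0.07; edgeR adjusted p = 0.258). SHMT2, a mitochondrial enzyme of serine and folate metabolism, had the smallest p, with 81.4, 82.1 and 81.7 CPM after knockdown and 74.2, 73.3 and 64.6 in the controls. These groups were apart, and the log2 fold change was 0.21 ± 0.07 (edgeR adjusted p = 0.199). The list's median was 0.05 without knockdown library b and 0.05 with the gene span trend removed. In each of these fits 1 of the 28 had an unadjusted edgeR p under 0.05. Without knockdown library c 10 of the 28 had one, and 3 passed, where 6.62% of all genes did.

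Genes that MYC lowers were mixed, with 5 of 9 tested above 0 and a median of 0.02. At an unadjusted edgeR p under 0.05 there were 3 higher and 3 lower, where 14.3% of all genes had one, and the groups were apart in 6 of the 9, where 18.9% of all genes were apart. CDKN1A, the cell cycle inhibitor p21, which p53 also activates, was the only one to pass. It had 14.5, 14.3 and 15.8 CPM after knockdown and 27.9, 23.0 and 19.9 in the controls. All 3 knockdown libraries were below control, with control library a the highest, and the log2 fold change was -0.66 ± 0.12 (edgeR adjusted p = 0.0240). The adjusted p was 0.0528 without knockdown library a, 0.0938 without knockdown library b, and 0.119 and 0.114 when control library a or b was left out. CDKN1B, the related inhibitor p27, had 25.3 ± 1.50 and 25.5 ± 1.65 CPM (log2 fold change -0.02), and CDKN2B was listed at 0 in all libraries.

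**Figure D5:**
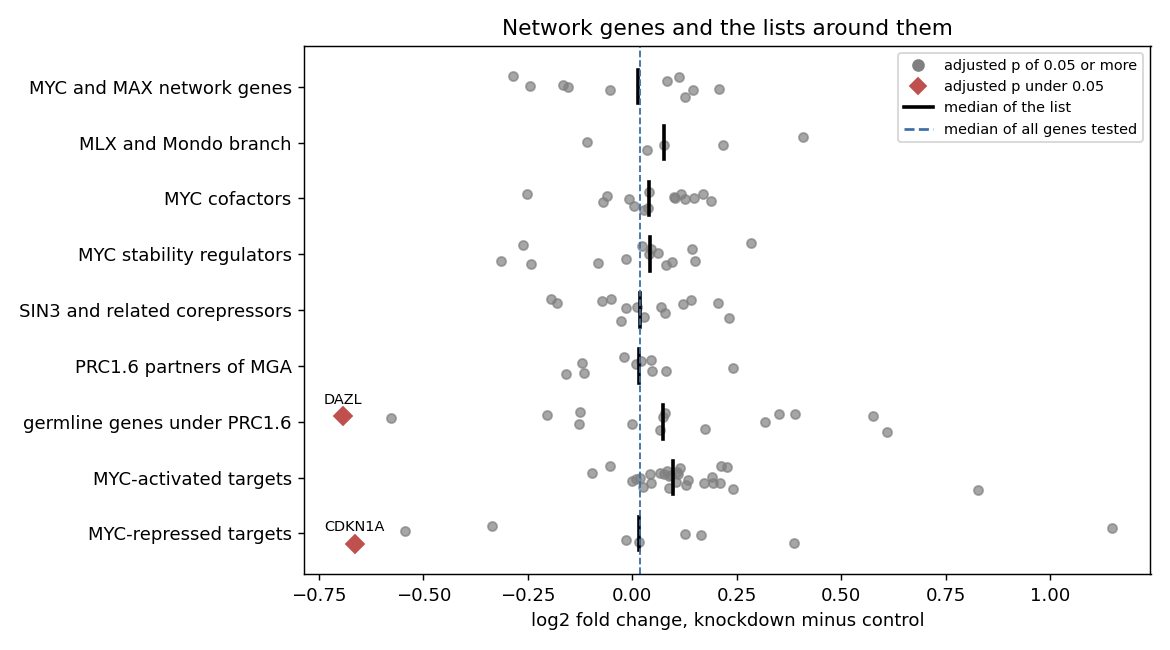
Log2 fold change of every tested gene in the network and in 8 of the lists around it, with 1 point per gene; black bars are list medians, the dashed line is the median of all genes tested and red diamonds are the genes with an edgeR adjusted p under 0.05. DAZL and CDKN1A, both lower, are the only diamonds.

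The rows beside the members were few. PVT1, a long noncoding RNA gene next to MYC, had 349, 367 and 511 CPM after knockdown and 562, 475 and 543 in the controls. Knockdown library c lay among the controls, while a and b were lower, and the log2 fold change was -0.37 ± 0.12 (edgeR adjusted p = 0.216). Without knockdown library c it was -0.58 (edgeR adjusted p = 0.00162), in a fit that called 6.62% of all genes. PVT1 also passed with no low-count filter (-0.36; edgeR adjusted p = 0.00039), where 5.18% of all genes did. It passed in none of the other 14 alternatives. MYCNOS had 0.654 ± 0.291 CPM after knockdown and 0.827 ± 0.351 in the controls (-0.31 ± 0.44; edgeR adjusted p = 0.797). The MYCL pseudogene MYCLP1 had 0 to 7 counts per library.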

How the data were processed

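The values, as deposited by the authors, are whole-number read counts for every gene symbol in each of 6 libraries. The labels' protocols name a directional library kit. The submitters' processing notes list Trimmomatic 0.39, STAR 2.7.8a, featureCounts, Subread 2.14.2 and build hg38. The strand setting, the annotation and the handling of reads with several matches are not given in the sources used here, so reads of overlapping genes are uncertain. Of the table's rows, 32809 were matched to GENCODE 29 for identifiers, coordinates and lengths. In 28 rows the symbol had become a date, and these hold 0.207% of the counts.

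Counts were tested with edgeR 4.0.16 (R 4.3.3): filterByExpr, TMM, and the quasi-likelihood test with group as the only term, two-sided, adjusted by the Benjamini-Hochberg method over all 19721 genes at a threshold of 0.05. CPM used TMM-scaled library sizes, and ± is SD over 3 libraries for CPM and SE for fold changes. Alternatives were other scalings, filters and tests (DESeq2 1.42.0, limma 3.58.1), removal of each library's trend on gene span (splines with 5 degrees of freedom), the replicate letter as a block, and leaving out each library. The procedure was tested on simulated counts with the same spread for every gene and no effect of single libraries. This does not show how it handles the dependence on single libraries in these data.

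The members and the lists were chosen with earlier results of these data known. Named were all members and, from each list, its first 3 genes as written, every gene past the threshold and the one with the smallest p. A gene that this rule names is not reported here.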

Additional observations from a re-analysis of the deposited data

How the results depend on the processing

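The 10 members kept the sign of their fold change in all 16 alternatives. The count of members called was 0 in each, except without knockdown library c, so over the fits that each left out 1 library it ran from 0 to 1. The number of genes called among all tested ran from 26 to 1309 over those 6 fits. It was 1064 with no low-count filter, 393 with the replicate block, 243 with the gene span trend removed (over the 15968 tested genes with a span) and 471 with DESeq2's Wald test, against 155. Deviations from the group mean were little correlated between libraries that share a letter (1.23e-05 for a, 0.116 for b and -0.0251 for c). These values do not settle whether the letters pair the libraries. With the replicate block 0 members were called.

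With the longest transcript as gene length, MYC made up 60.2% of the MYC genes in knockdown and 61.4% in control libraries, and MGA 44.8% and 40.5% of the antagonists. Several uncalled genes near 0 changed sign. With library size alone the log2 fold change was 0.012 for SIN3B, 0.0082 for E2F6 and 0.013 for CDKN1B, and with upper-quartile scaling 0.0024 for SIN3B and 0.0030 for CDKN1B. With the gene span trend removed it was -0.022 for L3MBTL2 and -0.040 for ODC1. Over the fits without 1 library it ran from -0.013 to 0.067 for MLXIP, -0.058 to 0.017 for SIN3B, -0.013 to 0.052 for L3MBTL2, -0.013 to 0.107 for PCGF6, -0.054 to 0.014 for E2F6, -0.069 to 0.100 for ODC1, -0.067 to 0.041 for CDKN1B and -0.758 to 0.085 for MYCNOS. MXD3 had the fewest counts of the members, 111 to 188 per library, and MYCNOS 13 to 35.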

Other observations

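Further genes of the lists stood out in value but did not pass over all genes with edgeR, and they were chosen after their values were seen. GSK3B, the kinase that primes MYC for FBXW7, had 203, 198 and 228 CPM after knockdown against 256, 248 and 251 in the controls (log2 fold change -0.26 ± 0.07; edgeR adjusted p = 0.115). It passed in 3 of 16 alternatives, DESeq2 among them (adjusted p = 0.00956), with adjusted p-values from 0.00305 to 0.422. With CIP2A and FBXW7 it is 1 of 3 among the 14 stability regulators with an unadjusted edgeR p under 0.05 and a lower level. Of all genes 7.57% were lower in this way. In the list 1 regulator was higher at that threshold, where 6.68% of all genes were. Among the activated targets LDHA and ENO1, enzymes of glycolysis, had log2 fold changes of 0.21 ± 0.08 and 0.19 ± 0.08 (edgeR adjusted p = 0.233 and 0.287). Both had all knockdown libraries above control, as did 9.55% of all genes tested. LDHA, ENO1 and PDGFRB each passed in 1 of 16 alternatives.

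Of the genes that MYC lowers, GADD45A, a stress gene that p53 also activates, differed by -0.33 ± 0.11 on the log2 scale (edgeR adjusted p = 0.183) and NDRG1 one of -0.54 ± 0.20 (edgeR adjusted p = 0.240), while its relative NDRG2 had 0.39 ± 0.12 (edgeR adjusted p = 0.166). PDGFRB, which is also on the fibroblast list, had 1.73, 1.32 and 1.70 CPM after knockdown against 0.668, 1.06 and 0.413 in the controls (1.15 ± 0.37; edgeR adjusted p = 0.189).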
